A study of Mus musculus with 53 samples.

Results

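Imprinted genes are genes of which mainly the copy inherited from 1 parent is expressed, and 37 of them were listed by name to be followed across all 53 arrays. A listed gene was kept where the platform annotation had a probe set with that symbol alone, and a gene with several such probe sets was read from the one that was brightest on average. This left 34 of 18193 genes. Of these, 33 lay above the median of their array in at least 2 arrays and were tested among 13807 genes. Nap1l5 did not pass and gave 1.2 to 39.8 signal units on all arrays. H19, Rtl1 and Zrsr1 had no probe set with their symbol alone and were not analysed here. The list was not chosen on measured values, but it was drawn up with earlier results of these data known.

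The imprint is a DNA methylation mark set in the germ line of 1 parent at a control region, and it is kept through early development while the rest of the genome is demethylated. Zfp57 binds a methylated hexamer in these regions and, with Trim28, protects the mark. Polycomb repressive complex 2, which methylates histone H3 and needs its subunits Ezh2 and Eed, is known to add to silencing of some imprinted genes in the placenta. Many imprinted genes act on fetal growth. The arrays do not tell the parental alleles apart, so every value below is the sum of both copies.

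The study compared mouse embryonic stem (ES) cells lacking either Polycomb subunit with wild-type cells, before and during differentiation, and total RNA was hybridised to Affymetrix arrays. Wild-type ES cells were measured undifferentiated at day 0 (7 arrays: lines J1, 2; CJ7, 2; E14tg1, 3). They were measured again at day 2 (4 arrays: J1, 2; CJ7, 2), day 6 (5 arrays: J1, 3; CJ7, 2) and day 8 (2 arrays, CJ7) of culture without LIF, a cytokine that keeps ES cells from differentiating. Ezh2-null ES cells were measured at days 0, 2, 6 and 8 (6, 4, 5 and 2 arrays) and Eed-null ES cells at days 0, 2 and 6 (5, 2 and 2 arrays). The other groups were mesoendodermal cells marked by T-GFP (2 arrays), neuronal progenitors marked by Sox1-GFP (3 arrays), neuronal stem cells (2 arrays) and MEF, mouse embryonic fibroblasts (2 arrays). Wild-type and mutant ES cells had all been grown on feeder fibroblasts, which were depleted by letting them attach before harvest. The parent line of either mutant, the number of clones, and the strain and age behind the MEF were not stated in any source read here, so genotype and line cannot be told apart wherever a mutant is set against wild type. Arrays of 1 group are labelled biological replicates, but whether culture, harvest or RNA was repeated is unstated, so p-values measure the spread between these samples, which may be technical.

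The arrays were checked before they were averaged. Array medians lay between 50.5 and 63.0 signal units. Ezh2 signal was 169.2 to 245.9 in Ezh2-null against 1184.9 to 1786.4 in wild-type cells at day 0, and its highest value in any Ezh2-null array of the later days was 162.1. Eed signal was 2819.9 to 3098.6 in the arrays labelled Eed-null at day 0 against 2171.9 to 2884.9 in wild type; which part of the gene was altered is unstated, so these probes are no check of that label. The summed signal of 6 ES cell markers was 21977.9 to 26718.5 in all day-0 ES cell arrays and 115 to 134.5 in MEF, and that of 10 fibroblast markers was 2035.8 to 12885.7 and 40719.2 to 47008.5. Mixl1, a streak gene, marked T-GFP cells (mean 1924.6 against 25.0 in day-0 wild type), and Sox1 marked Sox1-GFP cells (762.1 against 15.8) and was at 43.5 in neuronal stem cells, which carried Olig2 and Fabp7 instead. At days 2 and 6 the arrays fell into 2 sets by how the probe sets of the same gene differed. A score from 2536 such pairs was 16 to 23 in the second set and at most -6.1 in the first. Day-2 replicates 3 and 4 and day-6 replicates 3 to 5 of wild-type and Ezh2-null cells made up the second set, together with every day-2 and day-6 Eed-null array. Results of these days are therefore also given within a set. In bulk samples fewer cells of a type and less RNA per cell cannot be told apart.

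The promoters of the 4 genes that the results turn on are shown first, because the hexamer that Zfp57 binds when methylated, TGCCGC, occurs in some of them. They are Nnat (chr2:157559828-157560127, plus strand), Peg3 (chr7:6730370-6730669, minus), Plagl1 (chr10:13090582-13090881, plus) and Grb10 (chr11:12037371-12037670, minus), each a RefSeq window of 300 bases on GRCm38.p6, from 250 bases before to 50 after 1 annotated start. Capitals mark the hexamer as read on either strand.
Nnat: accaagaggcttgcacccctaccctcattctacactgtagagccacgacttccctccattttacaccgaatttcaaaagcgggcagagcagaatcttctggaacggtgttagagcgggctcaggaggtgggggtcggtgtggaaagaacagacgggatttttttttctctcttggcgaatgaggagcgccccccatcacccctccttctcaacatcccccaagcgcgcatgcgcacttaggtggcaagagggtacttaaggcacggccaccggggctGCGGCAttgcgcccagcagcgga
Peg3: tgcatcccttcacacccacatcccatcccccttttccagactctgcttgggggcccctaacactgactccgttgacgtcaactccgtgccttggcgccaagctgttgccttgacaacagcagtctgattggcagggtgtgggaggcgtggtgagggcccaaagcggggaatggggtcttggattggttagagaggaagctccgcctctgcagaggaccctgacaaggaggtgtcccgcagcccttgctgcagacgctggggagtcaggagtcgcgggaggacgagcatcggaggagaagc
Plagl1: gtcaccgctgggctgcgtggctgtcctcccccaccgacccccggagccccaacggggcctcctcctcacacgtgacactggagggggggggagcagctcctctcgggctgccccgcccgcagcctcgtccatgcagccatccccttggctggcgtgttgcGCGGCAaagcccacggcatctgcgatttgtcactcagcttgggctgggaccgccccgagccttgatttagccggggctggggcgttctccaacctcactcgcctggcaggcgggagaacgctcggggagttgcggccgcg
Grb10: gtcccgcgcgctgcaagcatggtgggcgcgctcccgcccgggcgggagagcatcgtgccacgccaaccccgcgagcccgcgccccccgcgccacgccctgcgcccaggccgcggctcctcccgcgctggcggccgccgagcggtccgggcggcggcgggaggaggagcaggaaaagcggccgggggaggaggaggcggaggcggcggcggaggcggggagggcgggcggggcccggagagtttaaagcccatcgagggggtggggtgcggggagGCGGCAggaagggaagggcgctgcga
The hexamer began at base 278 in the Nnat window, at 161 in that of Plagl1 and at 275 in that of Grb10, and the Peg3 window held none. These windows held 17, 26, 45 and 13 CG dinucleotides in the order Nnat, Plagl1, Grb10 and Peg3. The other Grb10 window (chr11:12027922-12028221, minus), which is not shown, held no hexamer and 9 CG dinucleotides. Searched on both strands, the hexamer stood in 22.9% of 48 windows of listed genes and in 11.6% of all 32851 windows, and the median CG number was 13.5 against 7. Listed genes are richer in CG, and the arrays measured no methylation, so the matches are a description of sequence. A gene may have other starts. Of the listed genes, 4, Impact among them, had no window among the 48, so the 22.9% does not cover them. All windows may include windows of such genes, so the shares may not rest on the same selection.

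**Figure D1:**
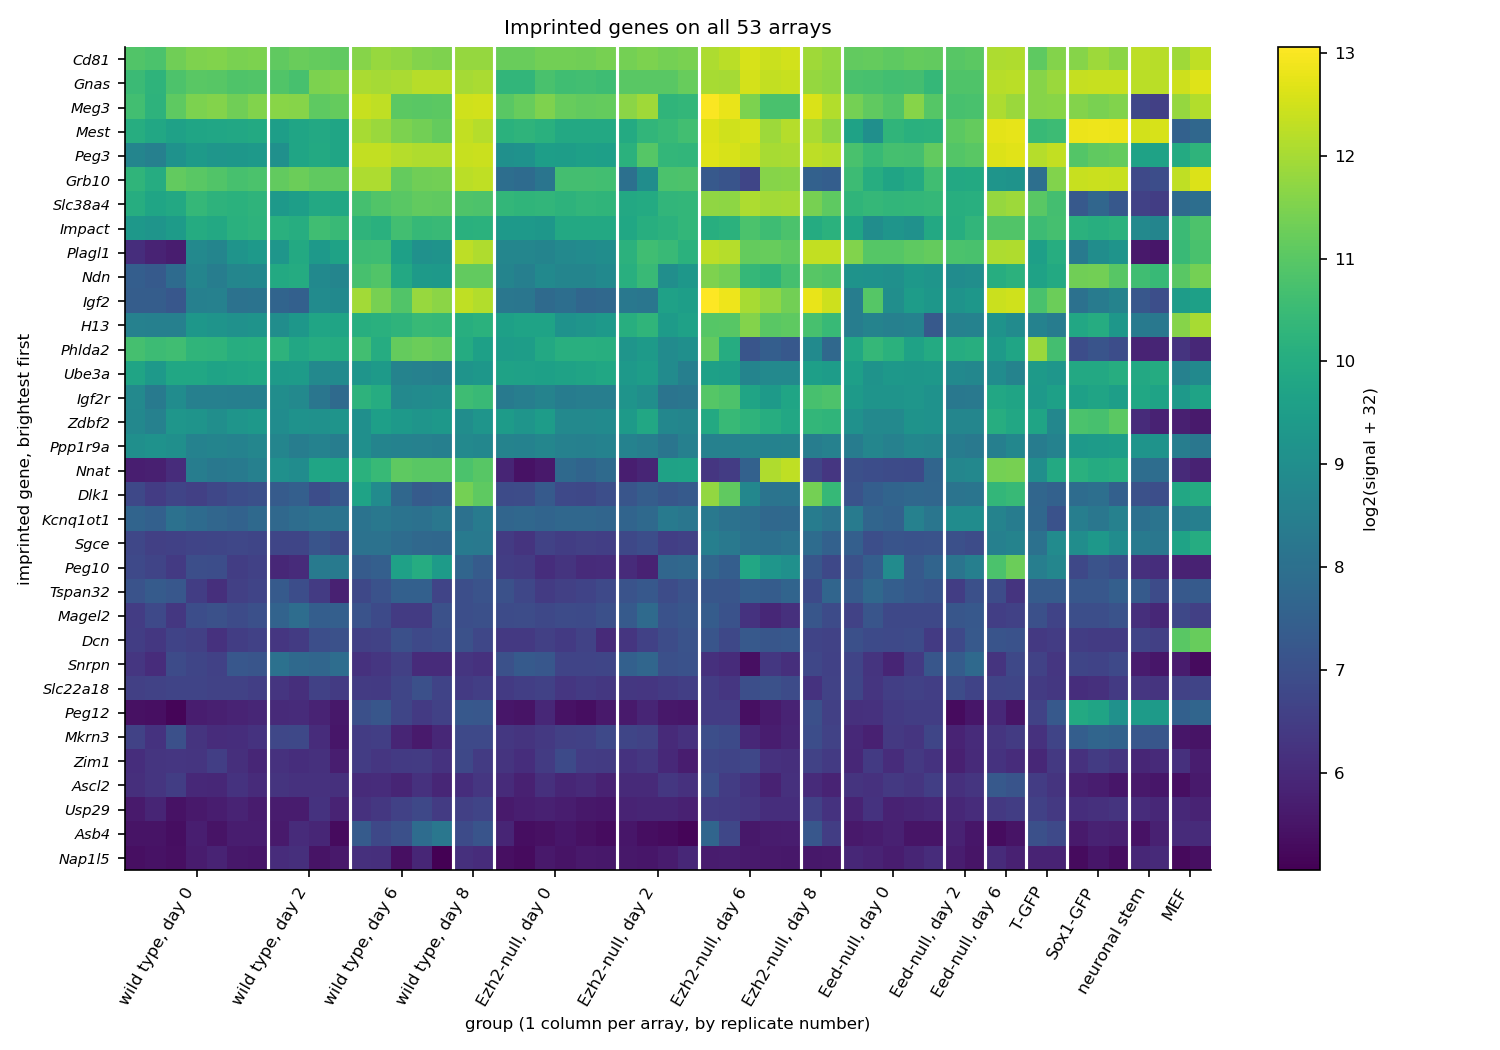
Imprinted genes on all 53 arrays. Each row is the probe set of 1 gene, ordered by its mean signal, each column is 1 array in replicate order within its group, and colour is log2(signal + 32). Grb10 and Nnat are dark in some Ezh2-null arrays and bright in others of the same day, and Igf2, Peg3 and Mest turn bright in the day-6 and day-8 columns of every genotype.

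In undifferentiated Ezh2-null cells no tested imprinted gene passed the threshold against wild type, while Eed-null cells carried 4 paternally expressed genes at a higher level. Grb10 and Nnat were split between arrays of the Ezh2-null group, as given below, so a group mean does not describe them. Calls required both a 2-fold change or more and an adjusted p below 0.05 (limma, with Benjamini-Hochberg adjustment across the 13807 genes). In Ezh2-null against wild-type cells at day 0, 0 of 33 were called against 0.0507% of all genes, and 7 of 33 had an unadjusted p under 0.05 (1480 of 13807 genes). The median log2 fold change of the 33 was -0.04, against 0.002 over all tested genes. Of the growth genes, Igf2 differed by 0.02 ± 0.30 (SE, n = 6 and 7), Dlk1 by 0.20 ± 0.36, Meg3 by 0.09 ± 0.29, Peg3 by 0.30 ± 0.14, Ascl2 by -0.20 ± 0.11 and Phlda2 by -0.49 ± 0.36. In Eed-null cells 4 of 33 rose and 0 fell, where 1.52% of all genes rose and 0.739% fell. The median of the 33 was 0.05, so the list as a whole lay where other genes did (0.041).

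Plagl1, a zinc finger transcription factor that is expressed from the paternal copy and sits upstream of other imprinted growth genes, rose most. Its signal was 2960.1, 1943.7, 1930.7, 2135.9 and 2279.2 in the 5 Eed-null arrays, and in wild type the lowest, median and highest of 7 arrays were 19.6, 386.8 and 632.8. The lowest Eed-null value was above the highest wild-type value, a log2 fold change of 3.46 ± 0.42, adjusted p = 1.7e-08 (limma). The wild-type arrays themselves fell apart: Plagl1 was 36.7 and 25.6 in J1 and 19.6 in replicate 3 of CJ7, but 420.0 in the other CJ7 array and 386.8, 554.6 and 632.8 in E14tg1. Against wild-type replicates 4 to 7 alone, the rise was 2.11. In Ezh2-null cells Plagl1 gave 395.9, 393.9, 370.7, 418.2, 444.9 and 476.1, which is within the range of wild-type replicates 4 to 7 but for the lowest array, and it was not called (1.13 ± 0.40, adjusted p = 0.20 in limma). The dimmer Plagl1 probe sets changed by 1.54 and 0.27 in Eed-null cells.

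Peg3, a paternally expressed zinc finger gene of growth and maternal behaviour, gave 1711.5, 1369.7, 1615.2, 1588.6 and 2221.8 in Eed-null cells and from 344.1 to 648.9 in wild type, with a median of 585.9. The groups did not overlap, and Peg3 rose by 1.64 ± 0.15, adjusted p = 1.6e-11 (limma). The size was 1.41 against wild-type replicates 4 to 7. In Ezh2-null cells the lowest, median and highest Peg3 values were 504.0, 704.8 and 743.4.

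Igf2, the paternally expressed fetal growth factor, was less even. It gave 320.5, 1954.1, 484.1, 686.6 and 590.3 in Eed-null arrays and 117.0 to 347.0 in wild type, with a median of 238.7. The lowest Eed-null array lay inside the wild-type range and replicate 2 stood far above the others. Igf2 rose by 1.53 ± 0.32, adjusted p = 0.00014 (limma), and by 1.15 to 1.78 when each array was left out in turn.

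Ndn, or necdin, a paternally expressed growth-restraining gene of the Prader-Willi region, gave 539.5, 523.9, 507.6, 605.6 and 569.5 in Eed-null arrays and 126.7 to 405.2 in wild type, with a median of 317.7. It rose by 1.01 ± 0.27, adjusted p = 0.0025 (limma), but the call rests on the dimmer wild-type arrays: against wild-type replicates 4 to 7 the difference was 0.52, adjusted p = 0.13 in limma. It fell under 2-fold without wild-type replicate 1, 2 or 3 or Eed-null replicate 4 or 5, with a lowest value of 0.86.

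The choice of probe set bears on these calls. When each gene was averaged over its probe sets, Peg3 was at 0.88, Igf2 at 0.66 and Ndn at 0.51, under 2-fold, and Plagl1 alone stayed called.

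Markers of other cells moved with the Eed-null arrays. Of 10 fibroblast markers 6 were called higher (summed signal 2035.8 to 12885.7 against 2616.6 to 4883.9 in wild type), and so were 4 of 8 endoderm markers (783.4 to 2285.4 against 348.6 to 687.2) and 3 of 5 trophoblast markers (2142.3 to 3788.1 against 696 to 2430). Eed-null replicate 5 had the lowest fibroblast sum of the 5, with Col1a1 at 9.0 against 517.9 to 787.6 in the others. It also had the lowest endoderm sum (783.4 against 1233.6 to 2285.4). Its trophoblast sum, 2869.6, lay within the range of the others (2142.3 to 3788.1) and above every wild-type array. Its Plagl1 and Peg3 values, 2279.2 and 2221.8, were as high as in the other arrays. Igf2 and Ndn in that array lay within the range of the others. The part of fibroblast, endoderm or trophoblast cells in these values was not tested.

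Set directly against each other at day 0, Ezh2-null cells lay below Eed-null cells in Plagl1 (-2.33 ± 0.44, adjusted p = 4.4e-05 in limma), Igf2 (-1.51 ± 0.33, adjusted p = 0.0003), Peg3 (-1.34 ± 0.15, adjusted p = 4.8e-09) and Peg10, a paternally expressed retrotransposon-derived gene of the placenta (-1.43 ± 0.44, adjusted p = 0.0086). H13, a signal peptide peptidase gene, lay above (1.15 ± 0.19, adjusted p = 5.7e-06 in limma). These 4 lower and 1 higher of 33 compare with 1.43% lower and 0.775% higher of all genes. The Peg10 difference was past the threshold through Eed-null replicate 3 (446.8 against 99.8 to 167.5 in the others) and missed it without that array (adjusted p = 0.051 in limma). H13 was 125.9 in Eed-null replicate 5 and 315.5 to 366.4 in the other 4, and without it the difference was 0.90. Its other probe sets did not show the change, and their mean with this one gave 0.08. Averaged in the same way, Peg3 was at -0.79 and Igf2 at -0.62, under 2-fold.

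**Figure D2:**
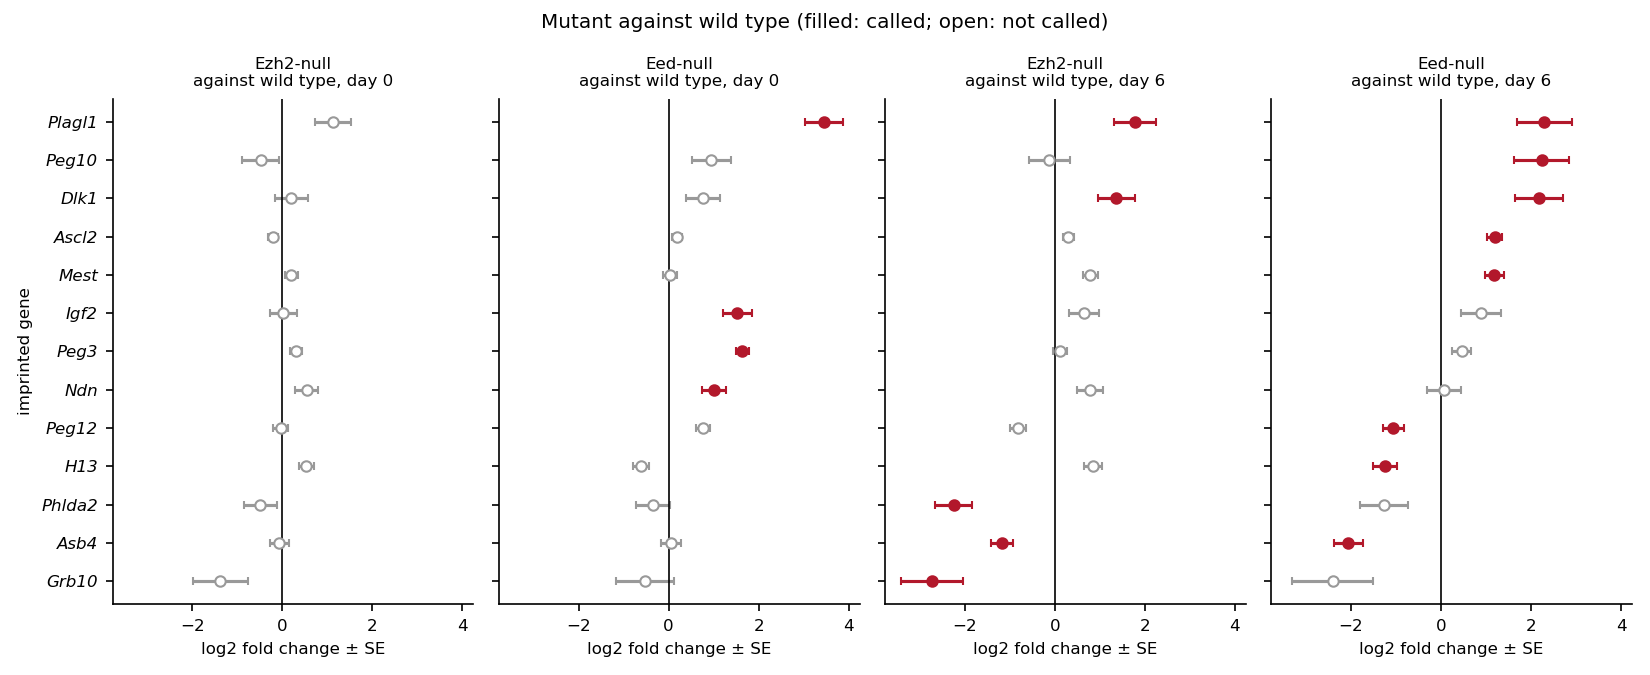
Log2 fold change of 13 imprinted genes in Ezh2-null and Eed-null cells against wild type at days 0 and 6, with standard error bars from limma. Filled points were called: none in Ezh2-null cells at day 0, Plagl1, Peg3, Igf2 and Ndn in Eed-null cells at day 0, and Plagl1 and Dlk1 higher in both mutants at day 6.

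The mean of Ezh2-null cells hid a split within the group. Grb10, an adaptor that restrains growth signalling from insulin and IGF receptors and is expressed from the maternal copy in most tissues, was 212.2, 198.5 and 251.9 in Ezh2-null replicates 1 to 3 at day 0 and 1581.2, 1594.2 and 1575.1 in replicates 4 to 6. Wild-type values were 1219.7, 1003.4, 2240.9, 2025.8, 1882.4, 1682.1 and 1720.5. So replicates 4 to 6 lay within the wild-type range and replicates 1 to 3 far under it. Nnat, or neuronatin, a paternally expressed membrane proteolipid gene within an intron of Blcap, was 26.3, 11.1 and 16.9 in replicates 1 to 3 and 189.3, 165.9 and 193.5 in replicates 4 to 6. The same Ezh2-null arrays were thus low for both genes, which lie on different chromosomes and are usually expressed from opposite parental copies. Wild-type Nnat was parted at day 0 as well, by 2.19 on the log2 scale. It was 20.8, 21.5 and 35.8 in replicates 1 to 3 and 277.4 to 338.9 in replicates 4 to 7. Low Nnat was therefore not particular to Ezh2-null arrays at day 0. The gap between the 2 sets of Ezh2-null arrays on the log2 scale was 2.50 for Grb10, the fifth widest of the 13807 genes, and 1.76 for Nnat. The split was singled out after the values were seen and has no test.

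The same parting returned at the later days. At day 2 Ezh2-null Grb10 was 224.4, 469.3, 1735.0 and 1765.2 in replicates 1 to 4, and Nnat was 20.5, 26.7, 790.5 and 797.6. At day 6 Grb10 was 125.3, 108.3, 74.1, 3044.2 and 3140.9 in replicates 1 to 5, and Nnat was 48.7, 57.0, 154.3, 4433.3 and 4973.4. At day 8 both Ezh2-null arrays were low for Grb10 (154.2 and 142.1, wild type 4783.1 and 4989.7) and for Nnat (72.0 and 47.2, wild type 1752.8 and 1999.8). No wild-type array of any day went under 1003.4 for Grb10. Replicate numbers do not mark the same culture at different days by any label, so arrays were not followed from day to day.

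At day 6 the gaps of Nnat and Grb10 (4.58 and 4.29 on the log2 scale) were the widest and next widest of the 13807 genes. A gene was counted as parted like Grb10 where the same Ezh2-null arrays stood apart by at least 1 on the log2 scale. There were 11 such genes at day 0, 392 at day 2 and 7 at day 6, Grb10 itself included. Only Grb10 and Nnat were among them on all 3 days. At day 2 the split lay along the array sets, but at day 6 it did not: replicate 3 belongs to the second set and was low for both genes, with replicates 1 and 2 of the first. At day 0 the score that marks the sets ran from -1.7 to 0.5 over all 6 Ezh2-null arrays. The 2 dimmer Grb10 probe sets parted the same arrays.

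Other values moved with the split on some days. Col1a1, a fibroblast collagen gene, was 47.2, 35.7 and 23.4 in day-0 replicates 1 to 3 and 171.5, 175.6 and 187.1 in replicates 4 to 6. The summed fibroblast signal was 2827.4 to 2892.8 and 3872.3 to 3969.3. MEF were bright for Grb10 (5025.8 and 6308.8) and dim for Nnat (31.7 and 24.8). At day 6 Col1a1 ran the other way, 628.6, 551.8 and 401.8 in the arrays low for Grb10 and 289.1 and 336.6 in the others. Nanog was 222.8 in day-6 replicate 3 and 1209.6 to 1536.6 in the other 4 arrays, so the arrays low for Grb10 did not share that value. Ezh2 was low in all of them. The part of line, clone or culture in the split was not tested, since no label gives them for these arrays.

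**Figure D3:**
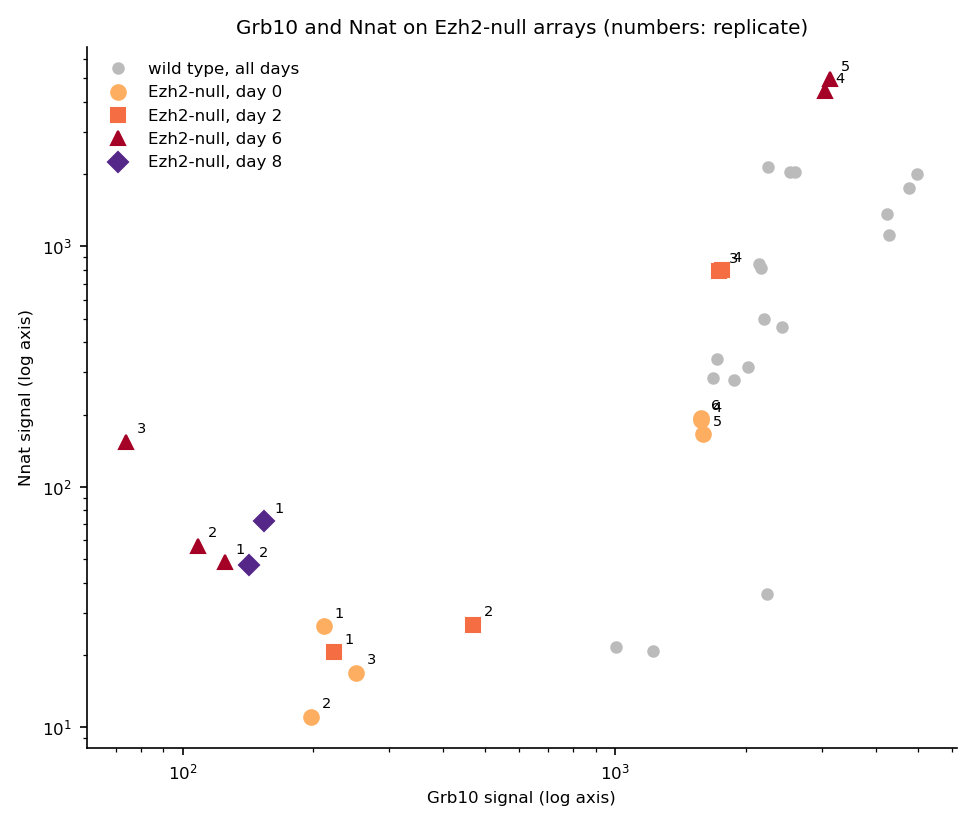
Nnat signal against Grb10 signal, both on log axes, in Ezh2-null arrays (coloured by day, numbered by replicate) and wild-type arrays of all days (grey). Ezh2-null arrays form a group low for both genes, with Grb10 from 74.1 to 469.3 and Nnat from 11.1 to 154.3, and a group high for both; 3 day-0 wild-type arrays were low for Nnat but not for Grb10.

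At day 2 of LIF withdrawal 0 of 33 imprinted genes were called in Ezh2-null against wild-type cells (0.123% of all genes were called in limma), with 5 at an unadjusted p under 0.05 (1262 of the 13807 genes). Peg3 came nearest (0.83 ± 0.18, adjusted p = 0.012 in limma, under 2-fold). It gave 1119.1, 1956.1, 1271.1 and 1259.5 in Ezh2-null cells and 507.1, 827.3, 931.3 and 838.6 in wild type, without overlap. Within the first array set Peg3 (1.15) and H13 (1.04) were called higher and Nnat (-3.21) lower, where 0.362% of all genes were called. Within the second set Phlda2 was called lower (-1.03), where 0.775% of all genes were called. In Eed-null cells Peg3 and Mest were called, 2 of 33 higher and 0 lower, against 0.456% and 0.579% of all genes. Peg3 was 1912.4 and 2013.5 (1.34 ± 0.22, adjusted p = 6.9e-05 in limma). Mest, a paternally expressed hydrolase-family gene of embryonic growth, was 2088.1 and 2251.7 against 718.2, 838.6, 916.3 and 830.8 in wild type (1.36 ± 0.22, adjusted p = 6.9e-05 in limma). Within the second array set, which holds both Eed-null arrays, the differences were 1.12 and 1.28, and Dlk1 (1.07) and H13 (-1.16) were also called there (1.3% of all genes called). Averaged over probe sets, Peg3 was at 0.94, under 2-fold.

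At day 6 the paternally expressed growth genes Plagl1 and Dlk1 were called higher in both mutants, and Asb4, a maternally expressed gene, was called lower in both. In Ezh2-null cells 2 of 33 were called higher and 3 lower, against 1.89% and 1.14% of all genes. Eed-null cells had 5 higher and 3 lower, against 1.85% and 1.25% of all genes. Both comparisons share the same 5 wild-type arrays. Within the first array set 2.14% of all genes were called in Ezh2-null cells, and within the second 5.78%. In Eed-null cells 3.53% were called within the second set. Igf2 (1.28) and Nnat (-3.9) were also called in Ezh2-null cells within the first set. The medians of the 33 were 0.18 and 0.30, against 0.001 and -0.002 over all tested genes.

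Plagl1 was 4913.9, 4577.9, 2293.9, 2316.1 and 2096.4 in Ezh2-null cells, 4342.5 and 4364.0 in Eed-null cells, and 1469.7, 1483.3, 745.8, 512.9 and 539.3 in wild type. All mutant arrays lay above all wild-type arrays. The rise was 1.78 ± 0.46 in Ezh2-null cells (adjusted p = 0.0027, limma) and 2.30 ± 0.61 in Eed-null cells (adjusted p = 0.0065, limma). Within the array sets the Ezh2-null rise was 1.66 (first set, not called) and 1.86 (second set, called), and the Eed-null rise was 2.81 in the second set. The Eed-null call was lost without either Eed-null array (adjusted p up to 0.087, limma). The change from day 0 to day 6 was not called as different from that of wild type in either mutant (0.65 ± 0.61 and -1.16 ± 0.74).

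Dlk1, a paternally expressed transmembrane protein related to Notch ligands, followed the array set. It was 3436.9 and 2187.4 in Ezh2-null replicates 1 and 2 and 400.0, 250.7 and 255.1 in replicates 3 to 5. Wild type gave 799.2 and 452.1, then 176.9, 129.5 and 140.6, and Eed-null cells 1268.3 and 1366.2. The overall Ezh2-null rise was 1.37 ± 0.41 (adjusted p = 0.01, limma), with 2.13 in the first set and 0.86 in the second. The Eed-null rise was 2.18 ± 0.54 (adjusted p = 0.004, limma) and 2.91 within the second set. Averaged over probe sets, the Ezh2-null Dlk1 difference was 0.57, under 2-fold. Meg3, the maternally expressed long non-coding RNA of the same locus, differed by 0.21 ± 0.33 and 0.41 ± 0.44 and was not called. Leaving out Ezh2-null replicate 1 or 2, or either Eed-null array, ended the respective Dlk1 call.

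Among maternally expressed genes, Grb10 was called in Ezh2-null cells at day 6 (-2.72 ± 0.69, adjusted p = 0.0024 in limma) through the 3 low arrays described above, and 2 of 5 arrays lay inside the wild-type range of 2250.6 to 4298.0. The difference was -4.85 in the first array set and -1.30, adjusted p = 0.2 (limma), in the second. In Eed-null cells Grb10 was 563.7 and 541.2, below every wild-type array, a difference of -2.41 ± 0.91 that was not called (adjusted p = 0.068, limma). At day 8 Ezh2-null Grb10 was lower by -4.77 ± 1.09 (adjusted p = 0.0069, limma). Leaving out any of the 4 arrays raised that adjusted p to between 0.06 and 0.1. Nnat at day 8 differed by -4.39 ± 1.30, adjusted p = 0.057 (limma). Zdbf2, a paternally expressed zinc finger gene, was the other gene called at day 8 (1.20 ± 0.27, adjusted p = 0.0068 in limma), so that 1 of 33 higher and 1 lower compare with 0.782% and 0.282% of all genes. It lost the call on leaving out 3 of the 4 arrays.

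Phlda2, a maternally expressed brake on placental growth, and Asb4, a maternally expressed ankyrin-repeat gene, were called lower in day-6 Ezh2-null cells, with values that differed by array set. Phlda2 was 2222.7 and 1003.7 in Ezh2-null replicates 1 and 2 and 111.3, 142.7 and 121.4 in replicates 3 to 5. Wild-type Phlda2 was 1540.6, 1006.3, 2282.8, 2445.2 and 2269.1. Its overall difference of -2.25 ± 0.41 (adjusted p = 4e-05, limma) was made of 0.26 in the first set, adjusted p = 0.7, and -3.92 in the second, adjusted p = 1.1e-15. Asb4 was 169.5 and 76.8, then 16, 19 and 20 in Ezh2-null cells, and 132.4, 77.8, 95.4, 204.4 and 268.8 in wild type. The overall difference was -1.17 ± 0.24 (adjusted p = 0.00022, limma), with 0.14 in the first set and -2.05 in the second. What distinguishes the sets, whether cells, culture or array handling, is stated nowhere in the labels. The Asb4 call needed wild-type replicate 5 (-0.98 without it).

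In Eed-null cells, all of whose day-6 arrays are in the second set, Asb4 was 7.8 and 12.1 (-2.06 ± 0.32, adjusted p = 7e-06 in limma, and -2.31 within the set). Phlda2 was 651.0 and 828.0, below every wild-type array but not called (-1.27 ± 0.54, adjusted p = 0.11 in limma), while within the second set it was called (-1.62, adjusted p = 2.4e-05 in limma). H13 was 536.1 and 446.3 against 1051.6 to 1353.9 (-1.24 ± 0.26, adjusted p = 0.00069 in limma), and the mean of its probe sets gave -0.24. Peg12, a paternally expressed gene of the Prader-Willi region, was 30.3 and 13.0 against 53.7 to 113.1 (-1.06 ± 0.23, adjusted p = 0.0012 in limma). It was under 2-fold within the second set (-0.85).

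The remaining calls were higher in Eed-null cells at day 6. Peg10 was 1738.1 and 2418.6 against 131.7, 146.9, 763.0, 994.3 and 667.0 in wild type, and the array set bore on it: the rise was 2.24 ± 0.61 (adjusted p = 0.0087, limma) over all arrays, 1.33 within the second set, and not called with the set as a block (adjusted p = 0.14, limma). Mest was 6790.5 and 6883.7 against 2255.9 to 4061.3 (1.18 ± 0.21, adjusted p = 9.5e-05 in limma). Ascl2, a maternally expressed transcription factor that the trophoblast needs, was dim, at 123.7 and 107.8 against 27.2 to 40.9 (1.19 ± 0.16, adjusted p = 6.7e-07 in limma). Its 2 other probe sets rose by 1.56 and 1.03. Igf2 and Peg3 were above all wild-type arrays in Eed-null cells without being called (0.89 ± 0.45 and 0.46 ± 0.21).

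Of the day-6 calls in Ezh2-null cells, those of Grb10, Plagl1 and Dlk1 missed the threshold once cell line entered as a random effect (adjusted p = 0.056, 0.11 and 0.11 in limma). Those of Grb10, Phlda2, Asb4 and Dlk1 missed it when only the arrays compared were fitted (adjusted p = 0.1, 0.075, 0.1 and 0.31 in limma). In Eed-null cells the line effect ended the Plagl1 call (adjusted p = 0.069, limma), and fitting only the arrays compared ended those of Peg10 and Dlk1 (adjusted p = 0.095 and 0.056, limma).

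Markers of cell state moved in both mutants at day 6. Of 6 ES cell markers 5 were higher in each (summed signal 4602.3 to 16537.6 in Ezh2-null, 14584.8 to 14861.5 in Eed-null and 4038.8 to 6598.1 in wild-type cells). All 5 mesoderm and streak markers tested were lower (461.5 to 668.9, 415.3 to 441.5 and 2183.5 to 6757.3). The fibroblast markers had 1 of 10 called higher in Ezh2-null cells and 0 in Eed-null cells. Of 5 trophoblast markers tested, Krt7 was called higher in both mutants and Hand1 lower in Ezh2-null cells. The summed trophoblast signal was 9620.2 to 11077.8 in Ezh2-null, 12302.3 to 12326.6 in Eed-null and 8205 to 9376.9 in wild-type cells. Of 8 endoderm markers, Gata6 was lower in Ezh2-null cells, and Dab2 was higher and Sox17 lower in Eed-null cells. Of 6 neural markers, Fabp7 was lower in both mutants. The part of this in the imprinted genes was not tested.

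**Figure D4:**
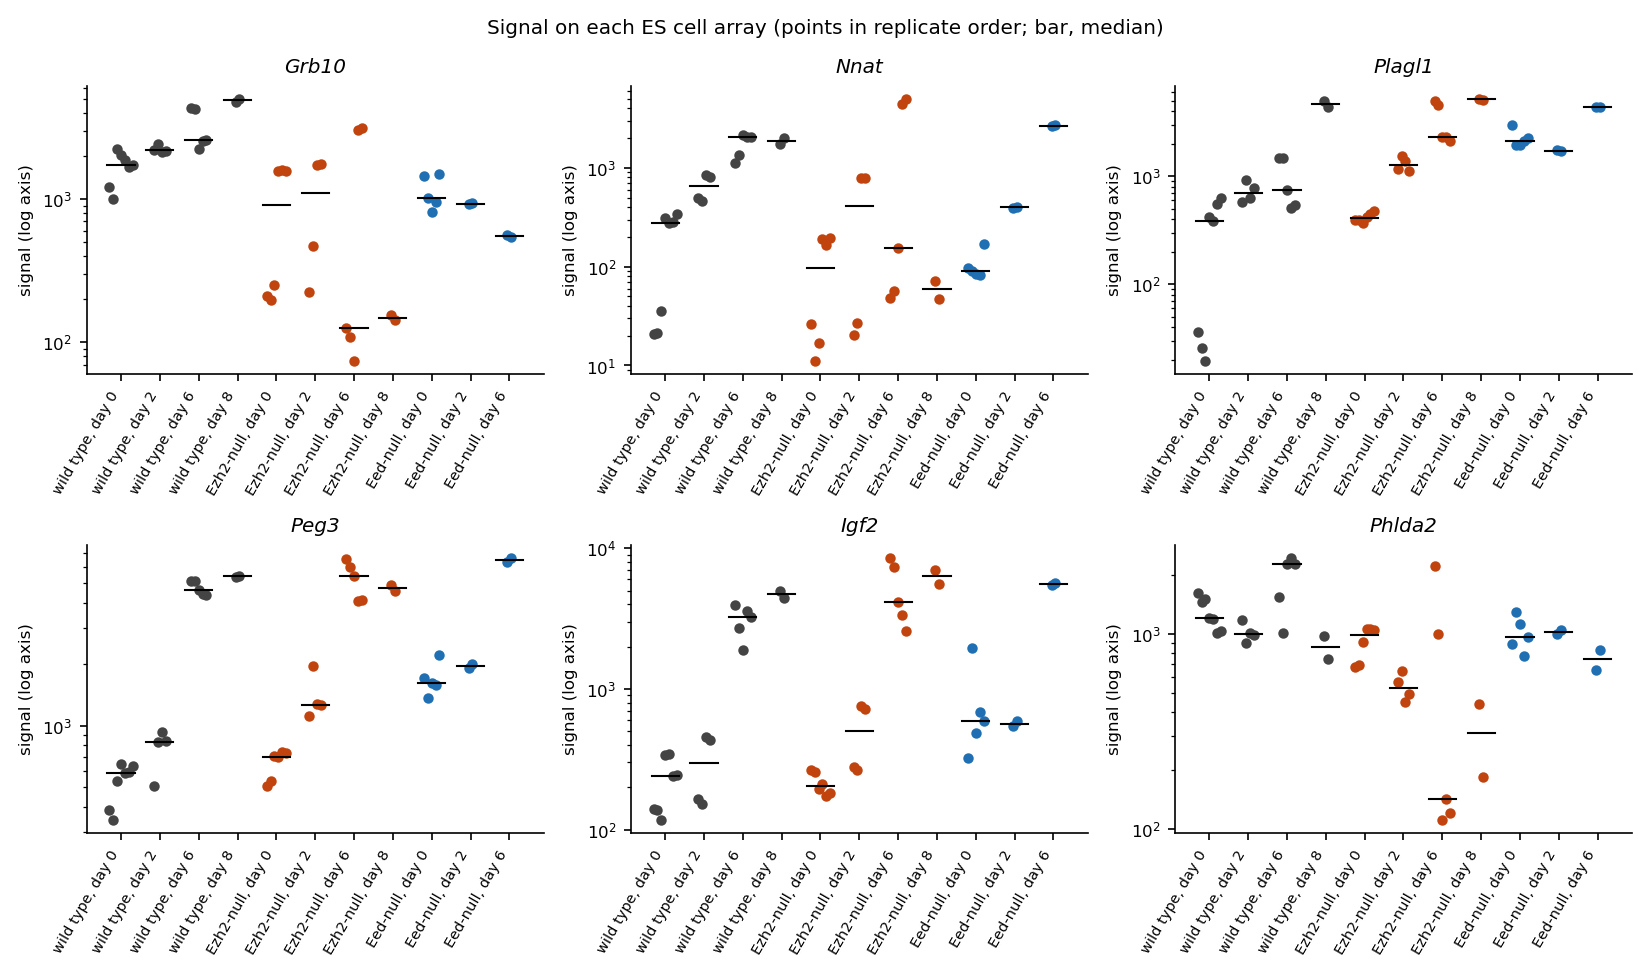
Signal of Grb10, Nnat, Plagl1, Peg3, Igf2 and Phlda2 on each ES cell array (points in replicate order, log axis), with the median of each group as a bar. Igf2 and Peg3 lie higher at day 6 than at day 0 in all 3 genotypes, Plagl1 is higher in Eed-null than in all wild-type arrays at day 0, and Grb10, Nnat and Phlda2 are spread over more than 10-fold within Ezh2-null groups at day 6.

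In wild-type cells a number of imprinted genes were called higher after differentiation, among them Igf2, Peg3, Nnat, Ndn and Mest. At day 6 against day 0, 13 of 33 rose and 0 fell, against 5.96% of all genes called higher and 4.38% lower. At day 8, 14 rose and 0 fell, against 7.71% higher and 3.69% lower. The medians of the 33 were 0.79 at both days, and 0.045 and 0.053 over all tested genes. An unadjusted p under 0.05 in limma was reached by 22 and 21 of 33, and by 8499 and 6840 of the 13807 genes. The day-6 share lay near that of all genes and the day-8 share somewhat above it, and neither difference was tested.

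The fetal growth factor Igf2 rose from a median of 238.7 to 3937.3, 2688.1, 1882.9, 3603.4 and 3260.0 at day 6 and 4930.1 and 4453.9 at day 8. The groups did not overlap, and the log2 rises were 3.65 ± 0.32 (adjusted p = 4.8e-13, limma) and 4.30 ± 0.43 (adjusted p = 9e-11, limma). Peg3 rose from a median of 585.9 to between 4367.7 and 5106.5 at day 6, all within a narrow range in both array sets, and to 5361.9 and 5442.8 at day 8. Its rises were 3.11 ± 0.15 and 3.30 ± 0.20. Mest rose by 1.73 ± 0.15 and 2.41 ± 0.21, Ndn by 1.87 ± 0.27 and 2.96 ± 0.37, and Gnas, which encodes the stimulatory G protein alpha subunit, by 1.33 ± 0.12 and 1.25 ± 0.16.

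Dlk1 and Plagl1 were called at day 6 and had larger differences at day 8. Dlk1 had a median of 76.2 at day 0 and reached 2638.7 and 2108.4 at day 8, a rise of 4.47 ± 0.52 (adjusted p = 2.6e-09, limma), against 1.47 ± 0.38 at day 6. Plagl1 was 4907.4 and 4407.9 at day 8 (4.52 ± 0.58, adjusted p = 2.5e-08 in limma). Its day-6 rise of 2.12 ± 0.42 depends on the 3 dim wild-type arrays of day 0 and was 0.77 against replicates 4 to 7. Meg3 was called at day 8 (1.38 ± 0.42, adjusted p = 0.0068 in limma) but not at day 6 (0.44 ± 0.31), and at day 6 it was 5319.4 and 4967.3 in the first array set and 2049.1 to 2094.5 in the second. The Meg3 call at day 8 was lost without either day-8 array. Day 8 was measured in CJ7 alone and in no array of the second set, so day, line and set cannot be told apart there.

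Nnat rose by 3.45 ± 0.76 at day 6 (adjusted p = 0.00017, limma), with 1113.2, 1365.4, 2140.2, 2043.4 and 2039.9, and by 3.60 ± 1.04 at day 8, where the call was lost without replicate 2. At day 0 wild-type Nnat was 20.8 to 35.8 in replicates 1 to 3 and 277.4 to 338.9 in replicates 4 to 7. The size of both rises therefore rests in part on the 3 dim arrays, though all later values lay above all those of day 0. Igf2r, the maternally expressed receptor that clears Igf2, was called at day 8 (1.93 ± 0.31). Peg10, Asb4, H13, Sgce and Peg12 were also called at day 6 (2.07, 1.90, 1.35, 1.21 and 1.19), and the last 4 of these again at day 8. Phlda2 (0.50 ± 0.38), Grb10 (0.90 ± 0.64) and Ascl2 (-0.14 ± 0.11) were not called at day 6. Averaged over probe sets, 5 of these calls at day 6 were under 2-fold: Gnas (0.31), H13 (0.36), Sgce (0.87), Dlk1 (0.90) and Plagl1 (0.94). At day 8 Gnas (0.35) and H13 (0.38) were.

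At day 2, Snrpn, Ndn, Plagl1 and Nnat were called higher, 4 of 33 higher and 0 lower against 1.48% and 1.96% of all genes. Snrpn, a splicing factor gene of the Prader-Willi region, was 228.5, 191.1, 175.6 and 210.3 against 34.8 to 116.2 at day 0 (1.15 ± 0.19, adjusted p = 9.9e-06 in limma). It was back at 34.0 to 62.2 at day 6. The other 3 differed by 1.19, 1.87 and 2.08, and the overall count dropped to 0 against wild-type replicates 4 to 7 of day 0, where Snrpn was at 0.94. Averaged over probe sets, Ndn was at 0.84 and Plagl1 at 0.76.

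The mutants' change from day 0 to day 6 was set against that of wild type. In Ezh2-null cells Phlda2 and Asb4 differed (-1.75 ± 0.54 and -1.10 ± 0.32), 2 of 33 lower and 0 higher against 1.24% and 1.85% of all genes, with the dependence on the array set given above. In Eed-null cells 4 of 33 were lower and 2 higher by this measure, against 2.41% and 2.27% of all genes. Both day-6 Eed-null arrays were in the second array set, while wild type at day 6 was in both. The change over days was not fitted within a set, so the part of the set in it was not tested. Asb4 (-2.12 ± 0.39), Peg12 (-1.82 ± 0.29), Peg3 (-1.17 ± 0.26) and Tspan32 (-1.12 ± 0.34) had a lower change than in wild type, and Mest (1.15 ± 0.26) and Ascl2 (1.01 ± 0.20) had a higher one. In Eed-null cells the mean signal went from 17.0 to 9.95 for Asb4, from 50.2 to 21.7 for Peg12 and from 136.6 to 65.9 for Tspan32, and Peg3 went up. Averaged over probe sets, the Peg3 difference was -0.25 and that of Tspan32 -0.54, neither called. Leaving out 1 array ended the call of Ascl2 (any of 9 arrays), Mest (Eed-null replicate 2 of day 0) and Tspan32, with Tspan32 at -0.80 without Eed-null replicate 2 of day 6. The Phlda2 and Asb4 calls in Ezh2-null cells were each lost without any 1 of day-6 Ezh2-null replicates 3 to 5, and Asb4 also without wild-type replicate 4 or 5. Peg3 was 1369.7 to 2221.8 at day 0 in Eed-null cells and 344.1 to 648.9 in wild type, and 6353.0 and 6634.0 against 4367.7 to 5106.5 at day 6.

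Among wild-type lines at day 0, Plagl1 and Ndn were called higher in E14tg1 than in J1 (3.12 ± 0.46, adjusted p = 9e-06, and 1.27 ± 0.38, adjusted p = 0.021, limma), 2 of 33 higher and 0 lower against 2.11% and 0.348% of all genes. The Ndn call was lost without any 1 of 4 of these 5 arrays. Ndn was 142.0 and 126.7 in J1 and 317.7, 390.4 and 405.2 in E14tg1. No listed gene was called between CJ7 and J1 (0.471% of all genes; 7 of 33 and 1632 of 13807 genes at an unadjusted p under 0.05 in limma). None was called between E14tg1 and CJ7 either, where 0% of all genes were called in limma and 1 of 33 and 752 of 13807 genes had an unadjusted p under 0.05 in limma. The 2 CJ7 arrays did not resemble each other: Plagl1 was 19.6 and 420.0, Nnat 35.8 and 313.8, Igf2 117.0 and 338.9, and Ndn 197.0 and 380.6. J1 Nnat was 20.8 and 21.5, and E14tg1 Nnat 277.4, 284.6 and 338.9. The J1 arrays and replicate 3 of CJ7 thus went together, and the same 3 arrays had Col1a1 at 3.3 to 9.4 against 122.5 to 236.6 in the other 4. They also had array scores of -10.3 to -8.0 against -1.5 to 0.2. Line and these array features cannot be told apart in the J1 comparison.

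Other cell types carried some imprinted genes higher and some lower than ES cells. T-GFP cells had 8 of 33 higher and 0 lower (5.56% and 3.93% of all genes). Sox1-GFP cells had 10 higher and 2 lower (9.33% and 4.08% of all genes). Neuronal stem cells had 6 and 7 (12.3% and 10.9%) and MEF 10 and 6 (14.2% and 9.82%), each against wild-type ES cells at day 0. All 4 comparisons share those 7 arrays, and the groups compared have 2 or 3 arrays.

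In T-GFP mesoendoderm Peg3 and Igf2 had the largest rises. Peg3 was 4616.6 and 5167.7 (3.16 ± 0.20, adjusted p = 2e-16 in limma) and Igf2 was 1702.1 and 2414.7 (3.10 ± 0.43, adjusted p = 1.8e-07 in limma). Plagl1 (2.12 ± 0.58, but 0.77 against wild-type replicates 4 to 7), Peg10 (1.90 ± 0.58), Sgce (1.78 ± 0.15), Ndn (1.63 ± 0.37), Peg12 (1.36 ± 0.22) and Asb4 (1.36 ± 0.31) were the other genes called. Peg10 lost its call without either T-GFP array and Plagl1 without replicate 2. Grb10 differed between the 2 T-GFP arrays, at 221.5 and 2922.5, and Phlda2 was 3643.8 and 1612.8, so neither mean describes the group.

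In Sox1-GFP progenitors the highest rises were Peg12 (934.0, 814.9 and 517.6 against 4.0 to 27.9 in ES cells, 3.99 ± 0.19), Ndn (3.05 ± 0.32), Mest (7244.9, 7326.3 and 7208.6, 3.00 ± 0.18), Nnat (1087.3, 980.1 and 1037.4, 2.76 ± 0.90, but 1.67 and not called against wild-type replicates 4 to 7) and Sgce, a sarcoglycan gene (2.40 ± 0.13). Zdbf2, Gnas, Peg3, Mkrn3 and Igf2r were also called higher. Grb10 was 5326.8, 5468.6 and 5354.7, above all wild-type ES cell arrays but not called (1.71 ± 0.75, adjusted p = 0.06 in limma). Slc38a4, an amino acid transporter gene (-2.69 ± 0.12), and Phlda2 (-3.34 ± 0.45) were lower.

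Neuronal stem cells kept some of these levels and lacked others. Peg12 (672.6 and 646.5, 3.84 ± 0.22), Mest (5845.4 and 6072.1, 2.71 ± 0.21) and Ndn (1528.7 and 1376.5, 2.36 ± 0.37) were high as in the progenitors. Grb10 was 80.2 and 90.3 (-3.83 ± 0.87, adjusted p = 0.00023 in limma), Meg3 76.2 and 63.1 (-4.46 ± 0.42, adjusted p = 2.1e-12 in limma) and Zdbf2 34.2 and 24.3 (-3.13 ± 0.22, adjusted p = 2.9e-16 in limma). In the progenitors Meg3 was 2763.3 to 2988.2 and Zdbf2 1677.9 to 2089.5, a difference between the 2 neural groups that was not tested. Phlda2 (-4.47 ± 0.52), Slc38a4 (-3.54 ± 0.14), Plagl1 (-2.11 ± 0.58) and Snrpn (-1.11 ± 0.25) were also lower. Sgce, Gnas and Igf2r were higher.

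MEF had Dcn, or decorin, a matrix proteoglycan gene of fibroblasts, as their largest rise (2011.9 and 2341.8, 4.62 ± 0.17, adjusted p = 1.1e-25 in limma). In ES cell arrays of all genotypes and days Dcn stayed between 32.2 and 125.9. Dlk1 (882.3 and 984.3, 3.16 ± 0.52), Sgce (3.16 ± 0.15), Ndn (3.04 ± 0.37), Plagl1 (2.95 ± 0.58), H13 (2.88 ± 0.25), Peg12 (2.00 ± 0.22), Gnas (1.80 ± 0.16), Igf2 (1.63 ± 0.43) and Peg3 (1.00 ± 0.20) were higher. Phlda2 (44.2 and 30.0, -4.24 ± 0.52), Zdbf2 (-3.37 ± 0.22), Slc38a4 (-2.23 ± 0.14), Mest (153.4 and 177.7, -2.21 ± 0.21), Snrpn (-1.22 ± 0.25) and Ube3a (-1 ± 0.21) were lower. Peg3 and Ube3a lay at the 2-fold limit, and leaving out 1 of several arrays took them under it.

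The choice of probe set ended some calls between cell types. Averaged over probe sets, Gnas was at 0.28 in MEF, 0.30 in Sox1-GFP cells and 0.30 in neuronal stem cells. In MEF H13 was at 0.68, Igf2 at 0.60, Peg3 at 0.55 and Ube3a at -0.51. Ndn (0.87) and Plagl1 (0.95) were under 2-fold in T-GFP cells, Igf2r (0.68) in Sox1-GFP cells and Plagl1 (-0.73) in neuronal stem cells.

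Of the remaining listed genes, Cd81, Impact, Kcnq1ot1, Magel2, Ppp1r9a, Slc22a18, Usp29 and Zim1 were called in no comparison. Kcnq1ot1, the paternally expressed RNA that silences its neighbours in the placenta, lay between 101.5 and 467.4 in all arrays, and Cd81, a tetraspanin gene of the same domain, between 1731.4 and 6129.3.

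Genes that keep imprints and other imprinted genes were read beside the list. Of 17 imprint-keeping genes 16 were tested. In Ezh2-null cells at day 0 none was called, and in Eed-null cells Dppa3, which shields maternal methylation in the zygote, was higher (1.37 ± 0.24). In wild type 6 of the 16 fell by day 6 and 0 rose (median -0.64): Dnmt3l, the cofactor of the de novo methyltransferases (-3.73 ± 0.23), Zfp57 (-1.06 ± 0.34), Dppa3, Dnmt3a, Tet1 and Tet2. Zfp57 followed the array set at day 6, with 64.2 and 81.4 in the first set and 273.2, 276.7 and 239.9 in the second, all below the day-0 values of 307.2 to 496.1. In Eed-null cells at day 6 Dnmt3l (1.85 ± 0.33), Dppa3 (1.71 ± 0.34) and Zfp57 (1.41 ± 0.49) were higher than in wild type, along with the ES cell markers named above. Within the second array set the Eed-null differences were 1.74, 2.04 and 0.81, so that Zfp57 was under 2-fold there. Dnmt3l was also called higher in Ezh2-null cells at day 6 (1.22 ± 0.25, with 1.26 in the first array set and 1.19 in the second). At day 8 the Ezh2-null difference of Dnmt3l was 2.65 ± 0.39. Dnmt3b was lower in Ezh2-null cells at day 6 (-1.02 ± 0.2), and Tet1 was higher at day 8 (1.95 ± 0.38). Zfp57 was 326.4 to 677.0 in Eed-null, 248.8 to 406.9 in Ezh2-null and 307.2 to 496.1 in wild-type cells at day 0, and the Ezh2-null arrays low for Grb10 had 406.9, 398.7 and 248.8 against 300.4 to 328.3 in the other 3.

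Of 34 further imprinted genes 22 were tested. Sfmbt2, a Polycomb-like gene of the placenta, was higher (1.54 ± 0.32) and Ddc lower (-1.04 ± 0.21) in Eed-null cells at day 0, and 0 of 22 differed in Ezh2-null cells. By day 6 Cdkn1c, a maternally expressed inhibitor of the cell cycle (1.19 ± 0.25), Osbpl5 (1.36 ± 0.15) and Pon2 rose in wild type and Ddc and Ampd3 fell. At that day Osbpl5 was higher than wild type in both mutants (1.55 ± 0.16 in Ezh2-null and 1.18 ± 0.22 in Eed-null cells), Sfmbt2 and Commd1 were lower in Ezh2-null cells (Sfmbt2 by -0.91 in the first array set, not called, and -1.77 in the second), and Cdkn1c was lower in Eed-null cells (-1.20 ± 0.36). The medians of this list lay between -0.02 and 0.16 for either mutant against wild type at days 0 and 6, and at -0.1 for Ezh2-null against Eed-null cells at day 0.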

How the data were processed

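Total RNA was labelled as biotinylated cRNA and hybridised to Affymetrix arrays, per the labels' protocols. The authors deposited 1 linear signal intensity per probe set and array; how probes were summarised and arrays scaled was not given in the sources used here. Signals ran from 0.4 to 33986. Of 45037 probe sets 34945 carried 1 symbol in the platform annotation, 932 several and 9160 none.

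Intensities were taken as log2(signal + 32), without further scaling, and each gene was read from its brightest probe set. Genes above the array median in at least 2 arrays were fitted in limma 3.58.1 (R 4.3.3) with 1 mean per group over all 53 arrays (residual degrees of freedom 38). Wild-type lines had a fit of their own with 1 mean per line. P-values were adjusted within each of 20 comparisons. The number of arrays limits precision. On simulated data with 50 changed genes per comparison and fold size, 44 to 50 were recovered at 3-fold and at most 3 false calls were made. The simulated arrays had independent normal noise around 1 mean per gene, without array sets, lines or splits within a group. The simulation therefore does not measure false calls in the real arrays, which have such structure.

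The members, the further lists and the markers were chosen with earlier results of these data known. Every called member was named; where more than 8 were called, the 8 largest were given values, and Igf2, Dlk1, Meg3, Peg3, Plagl1, Grb10, Ascl2 and Phlda2 were followed throughout. Same-numbered Ezh2-null and wild-type arrays deviated together at day 2 (r = 0.57 to 0.7, 4 pairs) and day 6 (r = 0.38 to 0.72, 5 pairs), where the numbers also follow the array sets, so pairing and set cannot be told apart; in no other comparison did every pair correlate above 0.1. The alternatives were other pseudocounts, median centring, quantile normalisation, no filter on low values, the mean of a gene's probe sets, fits on the compared arrays alone, line, array set or replicate as a block, wild-type replicates 4 to 7 alone at day 0, and each array left out. The values within an array set were added after seeing the data.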

Additional observations from a re-analysis of the deposited data

Results flagged for a closer look

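Over 231 pairs of a gene and a group of 4 to 7 arrays, 1 array stood apart from the others by Dixon's criterion in 7 (3.03%), where chance gives about 1 in 20. In Eed-null cells at day 0, replicate 5 was highest for Nnat (169.6, others 82.3 to 97.2) and lowest for H13 (125.9, others 315.5 to 366.4). In Ezh2-null cells, Dlk1 was highest in replicate 3 at day 0 (126.9, others 79.5 to 94.0), Gnas in replicate 4 at day 2 (2323.5, others 2010.9 to 2044.7) and H13 in replicate 3 at day 6 (3006.6, others 1952.2 to 2127.6). In wild type, Ube3a was lowest in replicate 2 at day 0 (637.6, others 801.9 to 881.2) and Ppp1r9a highest in replicate 1 at day 6 (492.2, others 332.4 to 368.9).

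The change from day 0 to day 6 differed from that of wild type, by the interaction tested in limma, for Phlda2 (-1.75) and Asb4 (-1.1) in Ezh2-null cells. In Eed-null cells it differed for Asb4 (-2.12), Peg12 (-1.82), Peg3 (-1.17), Tspan32 (-1.12), Mest (1.15) and Ascl2 (1.01). Both day-6 Eed-null arrays were in the second array set, and the part of the set in these differences was not tested.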

How the results depend on the processing

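Of 1167 values of single imprinted genes under the alternatives, with left-out arrays not counted, 1051 kept their direction and their side of the threshold, 114 kept the direction and lost the call, and 2 reversed. The reversed values were Phlda2 (0.26) and Asb4 (0.14) in Ezh2-null cells at day 6 within the first array set. Counts of called genes moved as follows. With the larger pseudocount, Ezh2-null against Eed-null cells had 3, wild type at day 2 had 1, the change over days 1 in Ezh2-null and 3 in Eed-null cells, and E14tg1 against J1 had 1. With the mean of all probe sets, Eed-null cells had 1 at day 0 and 1 at day 2, Ezh2-null against Eed-null cells 2, wild type at day 2 had 2 and E14tg1 against J1 had 1. With the compared arrays alone, Ezh2-null cells had 1 at day 6, 4 at day 8 and 0 for the change over days, and E14tg1 against J1 had 4. With the line as a random block, Ezh2-null cells had 2 at day 6 and 1 at day 8. Against wild-type replicates 4 to 7, wild type at day 2 had 0. Within the first array set Ezh2-null cells had 3 at day 2; within the second they had 1 at day 2 and 3 at day 6, and Eed-null cells had 4 at day 2. The cause of these shifts was not tested.

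With arrays left out in turn, the count ran from 0 to 1 for CJ7 against J1, for E14tg1 against CJ7 and for Ezh2-null cells at day 8. It ran from 1 to 2 for E14tg1 against J1, from 2 to 4 for wild type at day 2, from 4 to 8 for Eed-null cells at day 6, and from 0 to 4 for the change over days in Ezh2-null cells. With the replicate number as a block, the counts in the 17 comparisons that allow it stayed within 1.5 times, with 5 for Ezh2-null and 8 for Eed-null cells at day 6. That block ended the calls of Snrpn in neuronal stem cells (-0.93) and Ube3a in MEF (-0.96) and no other. Dim genes such as Asb4, Ascl2 and Peg12 had arrays below the array medians, where signal over background limits the fold.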
